A study of Mus musculus with 21 samples.

Results

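T cells are the cells that carry the Harmony label "T Cells" in per-cell tables of dissociated tibialis anterior muscle, and they were 4188 of 87822 cells (4.77%) in 21 samples. Harmony is a batch-correction method, and its clusters were named by the authors from canonical marker genes. Of 23 Harmony types, T cells were the 7th most frequent. Every sample was whole muscle from 1 female C57Bl/6J mouse aged 20 months, profiled by single-cell RNA sequencing on the 10x Chromium platform. The groups were 4 uninjured mice and, after injury with the snake venom phospholipase notexin, 4 mice on day 1 after injury, 3 on day 2, 4 on day 3.5, 3 on day 5 and 3 on day 7 (dpi stands for days post-injury). Both tibialis anterior muscles were injected in injured mice, and the uninjured mice shared the age, sex and strain.

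T cells are lymphocytes that recognise antigen through a T cell receptor held at the membrane by the CD3 complex. In injured muscle they arrive after neutrophils, monocytes and macrophages, and regulatory T cells are known for their part in the switch from clearance of debris to repair. Natural killer (NK) cells and B cells are the other lymphocytes, and dendritic cells present antigen to T cells.

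The tables hold the depth, gene-set percentages and labels of each cell but no value of any single gene, so the T cell markers Cd3e, Cd3d and Trac were not measured here and the label was compared with the labels from other integrations instead. BBKNN, a graph-based integration of the same cells, named 3570 of the 4188 cells (85.2%) T cells. It named 319 (7.62%) NK cells, 150 (3.58%) endothelial cells and 131 (3.13%) myeloid cells. Scanorama, the third integration, has a joint cluster that the tables call NK cells, and 3843 T cells (91.8%) fell into it. This cluster also held 1312 Harmony NK cells, so it does not tell T cells from NK cells. A separate Scanorama label of T cells covered 36 cells, of which 11 were Harmony T cells and 15 Harmony neutrophils. Both BBKNN and Scanorama named 3838 of the 4188 cells (91.6%) T or NK cells.

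Both 1 dpi mice A and B stood apart before any comparison. In 1 dpi mouse A, BBKNN named 10 of 47 cells T cells and 37 myeloid cells, 33 of them inflammatory monocytes. Those 33 cells had a median of 55.3% of their unique molecular identifiers (UMIs, counted transcripts) in protein-coding genes, 3.72% in ribosomal protein genes and 17.3% in mitochondrial genes. The 10 cells on which both methods met had medians of 90.5%, 13.8% and 5.77%. In 1 dpi mouse B, 1 of 6 cells was a T cell by BBKNN and 5 were myeloid. In the other 19 mice the share named T cells by BBKNN ran from 55.6% (3.5 dpi mouse D) to 100% (uninjured mouse B). The 1 dpi results below are therefore also given without these 2 mice, which leaves 2 mice at that time point.

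**Figure D1:**
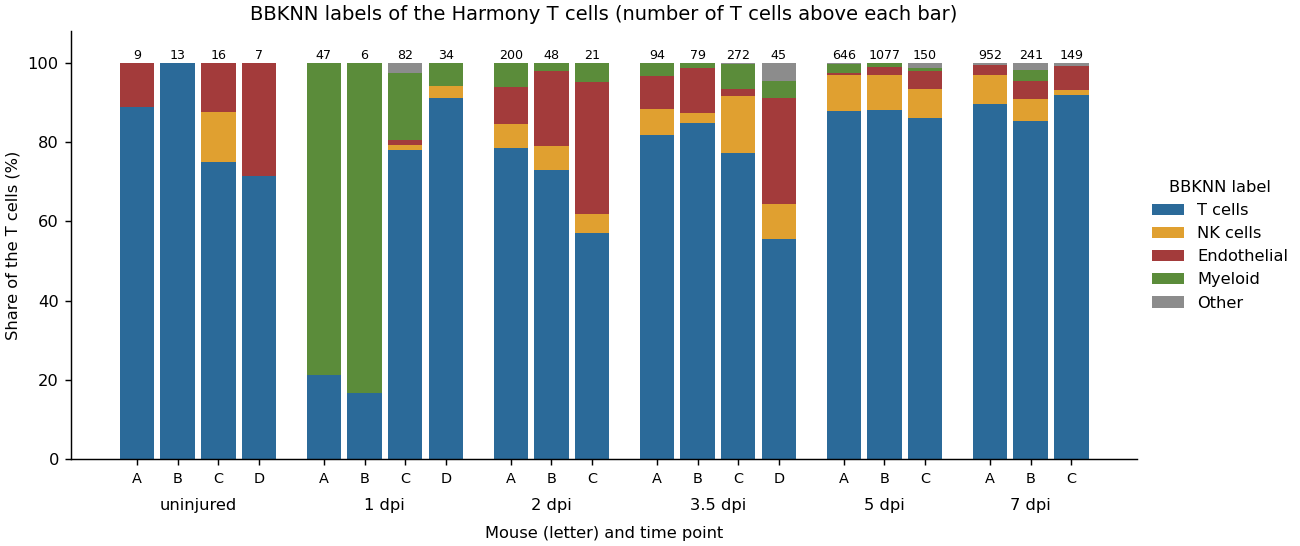
BBKNN labels of the Harmony T cells in each mouse, as stacked bars (y axis, % of the T cells of that mouse; x axis, mice A to D within each time point). The number above each bar is the T cells of that mouse; the myeloid part is largest in 1 dpi mice A (37 of 47 cells) and B (5 of 6 cells).

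The T cells that BBKNN placed elsewhere also differed in depth. The 98 cells it named Endothelial (Stem) had a median of 16006 UMIs, against 2940 UMIs in the 3570 cells it named T cells. These 98 cells were in 15 of 21 mice, and they were 98 of the 102 cells of any Harmony label that BBKNN named Endothelial (Stem). Of the 150 T cells with any endothelial label by BBKNN, 143 were endothelial by Scanorama too. In the 5 mice with at least 10 cells of each kind, the T cells with any endothelial label had more UMIs (15277 ± 7839 against 2576 ± 807, mean of mouse medians ± SD) in 5 of 5 mice. Their ribosomal share was lower in 5 of 5 mice, at 12.8% ± 0.756 against 19.1% ± 2.25. The 319 cells named NK cells had a median of 6346 UMIs, and they exceeded the T-labelled cells of the same mouse in 7 of 7 mice. Every deposited cell carries the singlet call of DoubletFinder, whose score was 0.251 (median) in the endothelial-labelled cells and 0.0992 in the T-labelled ones. The part of doublets in these differences was not tested, and no test was made between these cells because the labels came from the same expression values.

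Samples held 974 to 10556 cells, with a median of 3115 to 14614 UMIs per cell, and the median T cell had 1723 to 6773 UMIs depending on the mouse. The fraction of reads in cells was 44.2% to 56.3% in uninjured mice and 47.7% in 1 dpi mouse B. It was 66.5% to 94.8% in the other injured mice. The part of this quality difference in the comparisons with uninjured muscle below was not tested. A total of 254 T cells (6.06%) had fewer than 750 genes, the stated minimum, as did 6.42% of all cells. The 10x barcodes of 1935 cells (2.20%) occurred in more than 1 library, and 2 T cells shared a barcode with each other. Of all T cells, 3215 (76.8%) came from 5 and 7 dpi, and 2675 (63.9%) came from 3 mice (5 dpi A, 5 dpi B and 7 dpi A), so every comparison below uses the mouse as the unit.

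T cells were rare in uninjured aged muscle and most frequent at 5 and 7 dpi. In the uninjured mice A to D, 9, 13, 16 and 7 T cells were 0.397%, 0.381%, 0.318% and 0.719% of all cells (mean 0.454% ± 0.180, SD, n = 4). The exact 95% binomial interval of uninjured mouse D, the smallest sample, ran from 0.289% to 1.48%, and such intervals cover counting error only. At 1 dpi the shares were 1.61%, 0.501%, 1.81% and 0.886% (1.20% ± 0.614, n = 4), and mouse B lay within the uninjured range. At 2 dpi they were 1.89%, 1.04% and 0.660% (1.20% ± 0.632, n = 3), and mouse C lay below uninjured mouse D. At 3.5 dpi mice A and B were both at 3.0%, mouse C at 4.03% and mouse D at 1.16% (2.80% ± 1.20, n = 4), all above the uninjured mice. At 5 dpi they reached 12.1%, 12.7% and 5.65% (10.2% ± 3.92, n = 3). At 7 dpi they were 16.0%, 5.68% and 6.58% (9.41% ± 5.69, n = 3). The lowest mouse at 5 and 7 dpi exceeded the highest mouse of each earlier time point, while the 5 and 7 dpi mice overlapped.

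The share of T cells changed with time (F statistic, permutation test over 21 mice with 100000 resamples, p = 0.00015, adjusted p = 0.000314 over 23 types). The same test called 18 of 23 types (78.3%), so the shares of most cell types changed. The shares of a mouse are parts of the same total, and cell numbers per muscle were not measured. The T cell share passed in each alternative fit that was run, with adjusted p from 4.6e-05 to 0.00613 in the permutation tests and from 1.55e-09 to 2.68e-05 in edgeR, and without 1 dpi mice A and B it was 0.000544 in the permutation test.

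Against uninjured muscle, edgeR's quasi-likelihood test on cell numbers gave a 2.84-fold higher share at 1 dpi (log2 1.51 ± 0.54, SE, adjusted p = 0.0193) and a 2.81-fold higher share at 2 dpi (log2 1.49 ± 0.57, adjusted p = 0.0204). The fold was 6.48 at 3.5 dpi (log2 2.70 ± 0.55, adjusted p = 0.000115), 23.5 at 5 dpi (log2 4.56 ± 0.60, adjusted p = 4.18e-07) and 21.8 at 7 dpi (log2 4.44 ± 0.60, adjusted p = 7.53e-07). At 1 dpi 34.8% of the 23 types were called higher, 30.4% lower and 65.2% in either direction. At 2 dpi 39.1% were called higher and 82.6% in either direction. At 3.5 dpi the shares were 43.5% and 82.6%, and 39.1% were lower. At 5 dpi 47.8% were higher, 21.7% lower and 69.6% either, and at 7 dpi 43.5% were called, all of them higher. The exact permutation test (two-sided) gave p = 0.0571 at 1 and 2 dpi and p = 0.0286 at 3.5, 5 and 7 dpi, where 0.0286 is the smallest p that 4 mice against 4 or 3 can give. With TMM scaling of the cell numbers the fold was 12.8 at 5 dpi and 13.1 at 7 dpi, and without 7 dpi mouse A it was 14.2 at 7 dpi, where the mean share was then 6.13%, and all of these passed. With the deposited labels called pre-filter, an alternative added after the data were seen, the fold was 4.69 at 1 dpi and 6.84 at 2 dpi (edgeR adjusted p = 0.000976 and 0.000117). These labels include 921 T cells without a Harmony label, which had a median of 790 genes and 16.8% mitochondrial UMIs. At 2 dpi they outnumbered the Harmony T cells in every mouse (239, 89 and 42 against 200, 48 and 21 in mice A, B and C). At 1 dpi they did so in mice B, C and D (8, 87 and 50 against 6, 82 and 34), not in mouse A (3 against 47). At the other time points they were fewer than the Harmony T cells in every mouse. The calls at 1 and 2 dpi were lost with BBKNN labels (adjusted p = 0.119 and 0.0870), with T cells named by both methods (0.212 and 0.0805) and with the stricter cell filter (0.143 and 0.206). The 1 dpi call kept its side without 1 dpi mice A and B (log2 1.65 ± 0.61, adjusted p = 0.0184), whereas the 2 dpi call was lost without 2 dpi mouse A (log2 0.99, adjusted p = 0.154). Leaving out uninjured mouse C ended both calls, and leaving out 1 dpi mouse A (log2 1.34, adjusted p = 0.0540) or mouse C ended the 1 dpi call.

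Between neighbouring time points, the step that passed was from 3.5 to 5 dpi, a 3.63-fold rise (log2 1.86 ± 0.53, edgeR adjusted p = 0.0141), at which 3 of 23 types (13%) were called in either direction. The exact permutation p was 0.0286, and the lowest 5 dpi mouse (5.65%) exceeded the highest 3.5 dpi mouse (4.03%). This call was lost with TMM scaling of the cell numbers (log2 0.78, adjusted p = 0.534), without 3.5 dpi mouse D (log2 1.60, adjusted p = 0.0692) and without 5 dpi mouse B (log2 1.67, adjusted p = 0.0725). From 1 to 2 dpi the difference was -0.02 ± 0.54 on the log2 scale (adjusted p = 0.976), at which 2 of 23 types (8.7%) were called. From 2 to 3.5 dpi it was 1.21 ± 0.55 (adjusted p = 0.111), at which 1 type (4.35%) was called. From 5 to 7 dpi it was -0.11 ± 0.56 (adjusted p = 0.924), and 2 types (8.7%) were called.

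**Figure D2:**
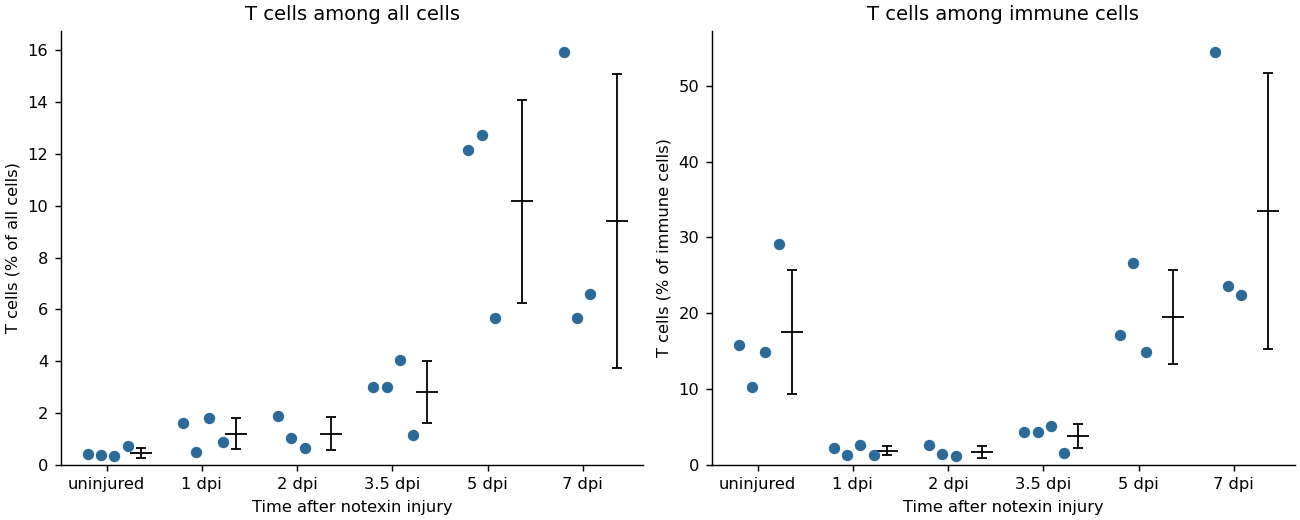
T cells as % of all cells (left y axis) and as % of immune cells (right y axis) against time after notexin injury. Each point is 1 mouse and the black bar with whiskers is the mean ± SD; on the left the 5 dpi mean is 10.2% against 0.454% in uninjured muscle, and on the right the 1, 2 and 3.5 dpi mice all lie below the uninjured mice.

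Among immune cells the time course had another shape, and immune cells as a whole were 2.71% ± 0.692 of all cells in uninjured muscle against 73.4% ± 4.28 at 3.5 dpi. Immune cells are here the 10 myeloid and lymphocyte types. T cells were 15.8%, 10.2%, 14.8% and 29.2% of immune cells in the uninjured mice (17.5% ± 8.14). They were 2.21%, 1.34%, 2.55% and 1.31% at 1 dpi (1.85% ± 0.624) and 2.60%, 1.40% and 1.13% at 2 dpi (1.71% ± 0.781). At 3.5 dpi they were 4.29%, 4.31%, 5.15% and 1.53% (3.82% ± 1.58), so no mouse of these 3 time points reached the lowest uninjured mouse. At 5 dpi they were 17.1%, 26.6% and 14.9% (19.5% ± 6.22), within the uninjured range. At 7 dpi they were 54.5%, 23.5% and 22.4% (33.5% ± 18.2), and mouse A alone lay above every uninjured mouse.

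The immune share changed over time (permutation test of the F statistic, adjusted p = 5e-05, and 0.00015 without 1 dpi mice A and B), as it did in 7 of 10 immune types (70%). In edgeR with immune cells as denominator, a test added after the data were seen, T cells were 0.127 of the uninjured level at 1 dpi (log2 -2.98 ± 0.45, adjusted p = 3.4e-07), where 30% of immune types were called lower. Without 1 dpi mice A and B the 1 dpi difference was -2.98 ± 0.53 (adjusted p = 5.61e-06), and with BBKNN labels it was -3.61 (adjusted p = 2.8e-05). They were 0.116 of it at 2 dpi (log2 -3.10 ± 0.47, adjusted p = 3.19e-07; 30% called lower) and 0.251 of it at 3.5 dpi (log2 -1.99 ± 0.43, adjusted p = 8.17e-05; 40% called lower). At 5 dpi the difference from uninjured muscle did not pass (log2 0.36 ± 0.42, adjusted p = 0.407). At 7 dpi it was 2.21-fold higher (log2 1.14 ± 0.42, adjusted p = 0.0165), with 30% of types called higher, but this was lost with BBKNN labels (log2 1.06, adjusted p = 0.137) and without uninjured mouse B (log2 0.91, adjusted p = 0.0968), uninjured mouse C (log2 1.12, adjusted p = 0.0675) or 7 dpi mouse A (log2 0.60, adjusted p = 0.21). The 5.12-fold rise from 3.5 to 5 dpi (log2 2.35 ± 0.35, adjusted p = 6.91e-07) passed in each alternative edgeR fit. At this step 40% of immune types were called in either direction and 30% were called higher. None of these immune-share steps passed the exact permutation test once adjusted over the 9 steps, in which 3 had an unadjusted p of 0.0286 (1 and 3.5 dpi against uninjured muscle and 5 against 3.5 dpi, adjusted p = 0.0857 for each). No smaller unadjusted p can be reached with these group sizes, which leaves the adjusted exact test little room to pass. The rise from 2 to 3.5 dpi was 2.16-fold (log2 1.11 ± 0.37, adjusted p = 0.016), and it was lost without 2 dpi mouse B, 2 dpi mouse C or 3.5 dpi mouse C (adjusted p = 0.104, 0.0832 and 0.0701). From 2 to 3.5 dpi 40% of immune types were called in either direction and 20% were called higher.

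T cells were also set against the other lymphocytes, 1370 NK and 436 B cells. In uninjured muscle T cells were 37.5%, 36.1%, 50% and 53.8% of lymphocytes (44.4% ± 8.89, n = 4). At 1 dpi they were 78.3%, 60%, 66.1% and 63% (66.9% ± 8.05), above all uninjured mice. With only the T cells that BBKNN also named T cells, 1 dpi mice A and B were at 43.5% and 20% and mice C and D at 60.4% and 60.8%, against 34.8% to 45.5% in uninjured mice, so the groups then overlapped. Without mice A and B the 1 dpi mean was 64.5%, and the exact permutation p against uninjured muscle was 0.133. The smallest exact permutation p that 4 mice against 2 can give is 0.0667, so this test could not pass. Mice C and D both lay above all uninjured mice. At 2 dpi they were 59.3%, 34.8% and 55.3% (49.8% ± 13.2), overlapping the uninjured mice. At 3.5 dpi they spread from 46.4% to 84% (68.1% ± 18.6, n = 4). At 5 dpi they were 66%, 71.9% and 59.8% (65.9% ± 6.09), and at 7 dpi 86.6%, 72.2% and 74.5% (77.8% ± 7.77). The change over time passed the permutation test (adjusted p = 0.0200, with all 3 lymphocyte types called, 100%). It did not pass with BBKNN labels (adjusted p = 0.146), nor without uninjured mouse A (0.0502) or B (0.0514), and it passed without 1 dpi mice A and B (0.0293).

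**Figure D3:**
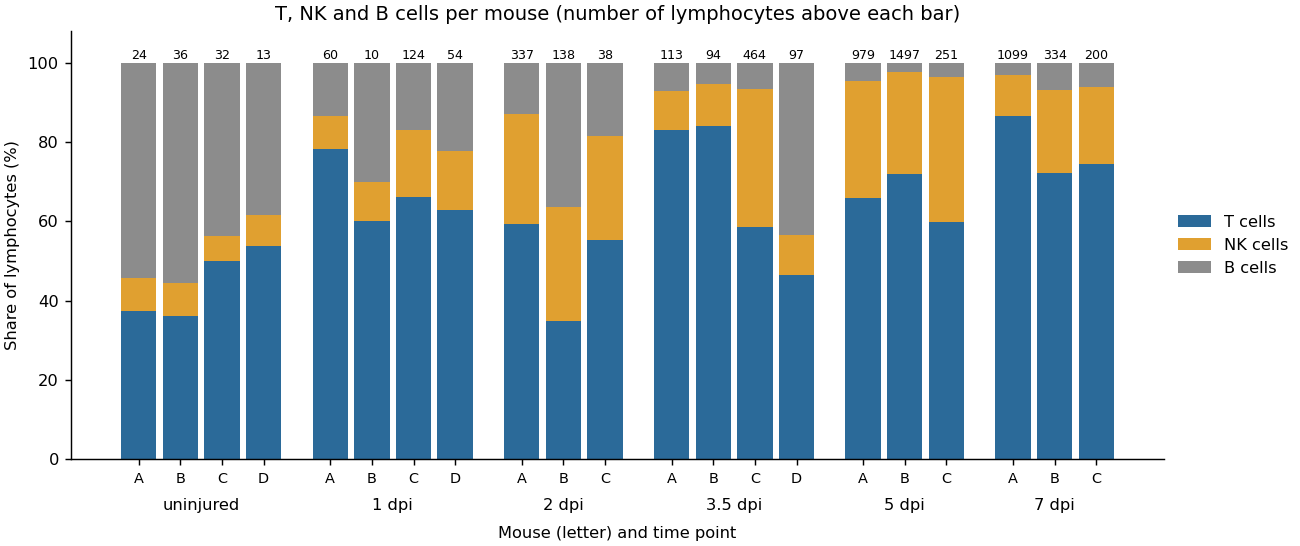
T, NK and B cells as % of lymphocytes (y axis) in each mouse (x axis, mice A to D within each time point), with the number of lymphocytes above each bar. B cells take 38.5% to 55.6% of the bar in uninjured mice and at most 6.89% at 5 and 7 dpi.

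As a share of all cells, B cells, which make antibodies, passed no comparison with uninjured muscle. Their shares of immune cells and of lymphocytes did change over time (permutation test of the F statistic, adjusted p = 6e-05 and 0.00264). Their share of all cells was 0.488% ± 0.143 in uninjured muscle, 0.518% ± 0.268 at 5 dpi and 0.542% ± 0.0115 at 7 dpi, and their edgeR log2 difference from uninjured muscle ran from -0.52 to 0.25 over the 5 time points. The ratio of T to B cells (geometric mean, with 0.5 cells added to each number) was 0.921 in uninjured muscle, with mice from 0.659 to 1.36. It was 3.24 at 1 dpi (3.25 without mice A and B), 2.33 at 2 dpi (3.63 without mouse B) and 6.21 at 3.5 dpi (11.2 without mouse D), where mice ran from 1.07 to 14.5. It reached 19.5 at 5 dpi (14.5 to 32.2) and 15.2 at 7 dpi (10.3 to 28.4). The ratio changed over time (permutation test of the F statistic on log2 ratios, adjusted p = 0.001 over 3 ratios, and 0.00232 without 1 dpi mice A and B).

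NK cells, cytotoxic lymphocytes without an antigen receptor, were above uninjured muscle from 2 dpi on, with edgeR log2 differences of 3.22, 3.52, 5.89 and 4.54 at 2, 3.5, 5 and 7 dpi (adjusted p = 0.00121, 0.000194, 6.07e-07 and 2.17e-05) and of 1.74 at 1 dpi, where the call was not reached (adjusted p = 0.0536). The ratio of T to NK cells was 4.69 in uninjured muscle and then, in the order of the time points, 4.91, 1.73, 4.62, 2.16 and 4.76, with 3.95 at 1 dpi when mice A and B were left out. At 2 dpi the 3 mice ran from 1.20 to 2.12 and at 5 dpi from 1.63 to 2.78, below all uninjured mice (3.80 to 6.60). Uninjured mice A to D held only 2, 3, 2 and 1 NK cells, so their ratios and the NK differences from uninjured muscle rest on few cells. At 3.5 dpi mouse C, at 1.69, stood below the other 3 mice (4.33 to 8.22). The change in this ratio passed (adjusted p = 0.0302, and 0.0471 without 1 dpi mice A and B), but not with BBKNN labels (0.11) and not without 2 dpi mouse B (0.0964), 2 dpi mouse C (0.0506) or 5 dpi mouse C (0.0599).

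The ratio of T to dendritic cells was lowest at 1 and 2 dpi. It was 3.25 in uninjured muscle, where mouse D, with 0 dendritic cells among 974, set the upper end of 15 through the added 0.5 cells and the other mice ran from 1.08 to 2.71, with a geometric mean of 1.95. The ratio was 0.280 at 1 dpi (0.241 without mice A and B) and 0.226 at 2 dpi, and the highest of these 7 mice had a ratio of 0.411. It was then 0.664, 1.63 and 2.77 at 3.5, 5 and 7 dpi in that order. At 7 dpi mouse A had 8.39 and mice B and C had 1.74 and 1.46, and without mouse A the value was 1.59. The change passed the permutation test (adjusted p = 0.00075), without uninjured mouse D (0.00045) and without 1 dpi mice A and B (0.00232) as well.

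Across the 21 mice the T and NK shares of all cells, on the arcsine square root scale, moved together (Pearson r = 0.873, permutation p = 1e-05, the smallest that 100000 resamples give; Spearman rho = 0.913, permutation p = 1e-05; adjusted p = 5e-05 for both over 10 values). Since both follow the time course, the time point means were also removed, and the relation within time points was weaker (r = 0.530, adjusted p = 0.0358; rho = 0.710, adjusted p = 0.0064, permutation within time points). Without the 2 mice with the NK shares farthest from the median (5 dpi A and B), r was 0.798. The 2 shares have the same denominator, and both use Harmony labels only. BBKNN named 319 Harmony T cells NK cells and 80 Harmony NK cells T cells. The part of such label differences in this relation was not tested. For B cells r was 0.137 (adjusted p = 0.609), for dendritic cells 0.443 (adjusted p = 0.105), for the number of cells in the sample 0.422 (adjusted p = 0.116) and for the sample's median UMIs 0.118 (adjusted p = 0.609), all by permutation tests. With time point means removed, the number of cells gave r = 0.483 and rho = 0.499 (permutation tests, adjusted p = 0.0897 for both).

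The remaining columns describe the T cells themselves. They are 13 measures, namely UMIs and genes per cell and 11 percentages of UMIs by gene set, each summarised per mouse. Mice with fewer than 10 T cells (uninjured A and D and 1 dpi B) were left out of these tests, so 18 mice entered and uninjured muscle was represented by mice B and C alone, with 13 and 16 T cells. Of the 13 measures, 1 passed the limma moderated F test, the percentage in small nucleolar RNA (snoRNA) genes (adjusted p = 0.00765), while 121 of 299 tests over all types and measures passed (40.5%). For snoRNA 4 of 23 types passed (17.4%).

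The snoRNA genes give RNAs that guide chemical modification of ribosomal RNA, and they held few UMIs. Their mean percentage was 0.0221 and 0.0193 in uninjured mice B and C and ran from 0.00516 to 0.0139 in the 16 injured mice tested, so the groups did not overlap. Against uninjured muscle the difference ran from -0.0124 ± 0.00236 percentage points (SE) at 1 dpi to -0.00964 ± 0.00236 at 7 dpi, and all 5 passed (limma adjusted p = 0.000843 to 0.0166). With all 21 mice counted, uninjured mice A and D had 0.0111 and 0.0189, and the 6 cells of 1 dpi mouse B had 0.0152, so that the groups then overlapped. Without 1 dpi mice A and B the 1 dpi difference was -0.0111 ± 0.00252 (adjusted p = 0.00431). The 5 dpi call was lost without uninjured mouse B (limma adjusted p = 0.0605), and the 7 dpi call without uninjured mouse B (0.14), 7 dpi mouse A (0.0527) or 7 dpi mouse B (0.0529). The call over time was lost without uninjured mouse B (adjusted p = 0.0930), which leaves 1 uninjured mouse that is assumed to vary like the other groups, and with at least 20 cells required no uninjured mouse was left to compare. The median T cell had no snoRNA UMI in any tested mouse but uninjured C, so the measure rests on a minority of cells and a test on medians is void.

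The mitochondrial share, a measure that rises in damaged cells, was 20.2% and 11.3% in uninjured mice B and C. Uninjured mice A and D, with 9 and 7 T cells, had 19.9% and 13.4%. At 1 dpi it was 14.5% in mouse A, 17.4% in mouse B (6 cells), 6.43% in mouse C and 7.67% in mouse D. At 2, 3.5, 5 and 7 dpi all 13 mice lay between 6.63% and 10.0%, below all 4 uninjured mice. Over time this did not pass (limma adjusted p = 0.0662), but it passed with at least 5 cells per mouse and all 21 mice (adjusted p = 0.0238), with T cells named by both methods (adjusted p = 0.00559) and without 1 dpi mice A and B (adjusted p = 0.0132). It also passed without 1 dpi mouse A (0.0140) or 1 dpi mouse C (0.0499), each left out alone. Leaving out uninjured mouse C or B left 1 uninjured mouse, whose spread is then assumed from the other groups, and gave 0.00538 and 0.498. Against uninjured muscle the differences at 1, 2, 3.5 and 5 dpi passed, with -6.22 ± 2.20, -6.87 ± 2.20, -8.36 ± 2.08 and -6.98 ± 2.20 points (limma adjusted p = 0.0362, 0.0434, 0.00467 and 0.0373), while -6.14 ± 2.20 at 7 dpi did not (adjusted p = 0.0781). Without 1 dpi mice A and B the 1 dpi difference was -8.69 ± 1.90 (adjusted p = 0.00281). The 1 dpi call was lost without 1 dpi mouse C (-4.68, limma adjusted p = 0.132) or D (-5.29, 0.123) and without uninjured mouse B (-1.75, 0.549). Without uninjured mouse B the calls at 2, 3.5 and 5 dpi were lost too (-2.40, -3.89 and -2.51 points, limma adjusted p = 0.471, 0.147 and 0.485). The 2 dpi call was also lost without any 1 of the mice of 2, 3.5, 5 and 7 dpi (adjusted p up to 0.108), and the 5 dpi call without any 1 of the 5 dpi mice (up to 0.0879). The exact permutation p at 3.5 dpi was 0.0667, the smallest that 4 mice against 2 can give. The same F test called 20 of 23 types (87%) for the mitochondrial share.

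The ribosomal share was 27.0% and 19.4% in uninjured mice B and C, and 19.2% and 14.9% in mice A and D, which were not in the test. It was 6.61%, 17.4% and 17.6% in 1 dpi mice A, C and D, and in mouse A 33 of 47 cells were the low-ribosomal cells described above. At 2 dpi it ran from 15.2% to 20.1% and at 3.5 dpi from 17.4% to 20.2%. The 5 dpi mice ran from 21.2% to 23.1% and the 7 dpi mice from 17.5% to 21.3%. Every 5 dpi mouse exceeded every 3.5 dpi mouse (difference 3.90 ± 2.32 points, limma adjusted p = 0.341, exact permutation p = 0.0571). Over time the ribosomal share did not pass (limma adjusted p = 0.0722), though it did with T cells named by both methods (adjusted p = 0.0244) and without 1 dpi mouse D (0.0491), and 17 of 23 types passed (73.9%). The single called step was 1 dpi against uninjured muscle, -9.32 ± 2.78 points (limma adjusted p = 0.0152), and without 1 dpi mouse A it was -5.69 ± 2.04 (adjusted p = 0.0436; 0.0421 without mice A and B). It was lost without uninjured mouse B (-5.50, adjusted p = 0.20). With all 21 mice the groups overlapped, since uninjured mouse D lay below 1 dpi mice C and D.

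The heat-shock share fell by 0.77 ± 0.21 points at 1 dpi and by 0.65 ± 0.20 points at 3.5 dpi against uninjured muscle (limma adjusted p = 0.00879 and 0.0164), from 1.39% and 1.73% in uninjured mice B and C, where mice A and D had 2.41% and 2.52%. The 6 cells of 1 dpi mouse B, which was not in the test, had 1.68%, above uninjured mouse B. With all mice counted, the 1 dpi and uninjured groups therefore overlapped. Without 1 dpi mice A and B the 1 dpi difference was -0.71 ± 0.24 points (limma adjusted p = 0.0300), and the call was lost without uninjured mouse C (-0.60, adjusted p = 0.0874), as was that at 3.5 dpi (-0.48, adjusted p = 0.164). Its F test over time did not pass (adjusted p = 0.0771, with 43.5% of types called), but it passed without 2 dpi mouse A (0.0251), 5 dpi mouse C (0.0360) or 7 dpi mouse C (0.0180). UMIs per T cell did not pass (adjusted p = 0.770), with mouse medians from 3701 to 4468 in uninjured mice B and C and from 1723 to 5583 in the 16 injured mice. Genes per T cell (adjusted p = 0.512), the transcription-factor share (0.330), the long intergenic non-coding share (0.250) and the protein-coding share (0.638, and 0.0261 without 1 dpi mouse A) did not pass either. In all, 12 of the 117 T cell contrasts passed and all 12 were against the 2 uninjured mice, with 37.3%, 16.9%, 35.4%, 17.7% and 10.8% of all types and measures called against uninjured muscle in the order of the time points.

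**Figure D4:**
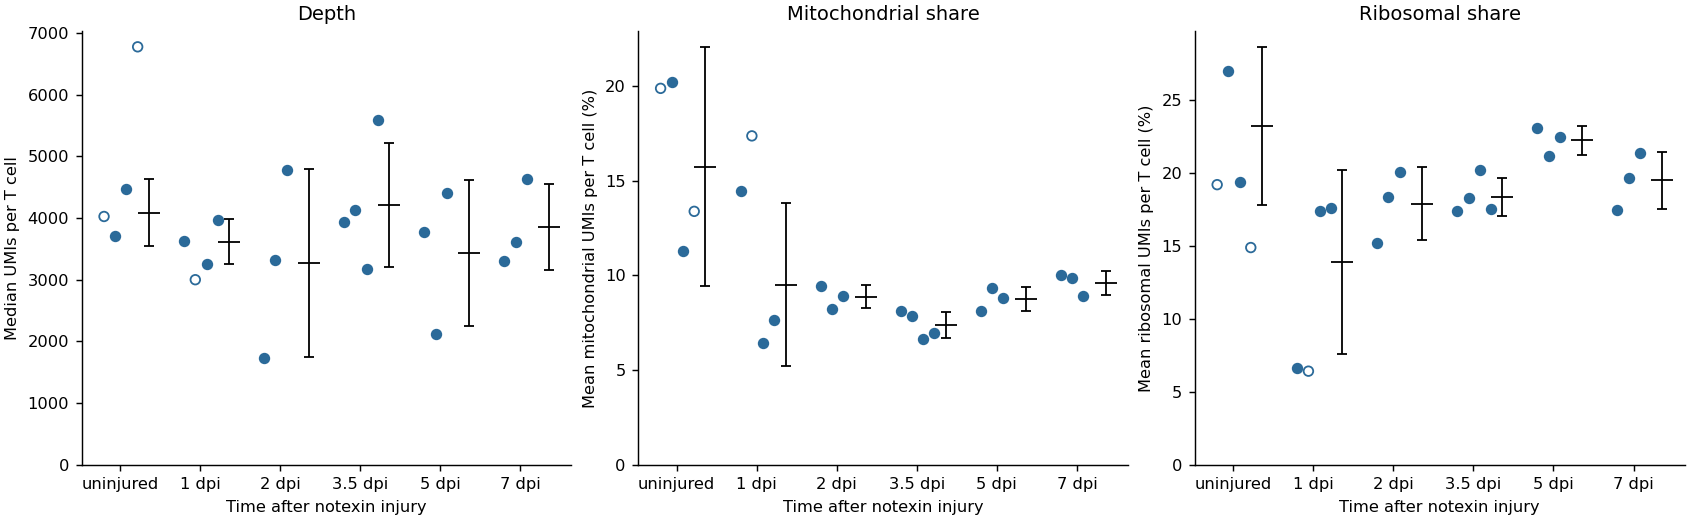
Median UMIs per T cell, mean mitochondrial share and mean ribosomal share (y axes, UMIs and % of UMIs) against time after notexin injury. Each point is 1 mouse, open points are mice with fewer than 10 T cells, and black bars are mean ± SD of the filled points; from 2 dpi on, the mitochondrial share lies between 6.63% and 10.0%.

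Set beside the most similar types of the same mouse, T cells were smaller libraries than NK and dendritic cells and had more genes per cell than B cells. These are descriptions with no test, since the types were defined from the same cells. T cells had fewer UMIs than NK cells in 12 of 14 mice (3695 ± 1019 against 5233 ± 1711, mean of mouse medians ± SD) and a higher mitochondrial share in 13 of 14 (8.40% ± 1.15 against 7.16% ± 0.936). Against B cells, T cells had more genes in 13 of 13 mice (1423 ± 307 against 1197 ± 239) and a lower mitochondrial share in 13 of 13 (9.47% ± 3.53 against 13.2% ± 4.51). Against dendritic cells, they had fewer UMIs in 17 of 17 mice (3708 ± 921 against 8492 ± 2407). Against all other cells of the sample, the ribosomal share of T cells was higher in 17 of 18 mice (18.9% ± 4.11 against 10.8% ± 1.27), the exception being 1 dpi mouse A.

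**Figure D5:**
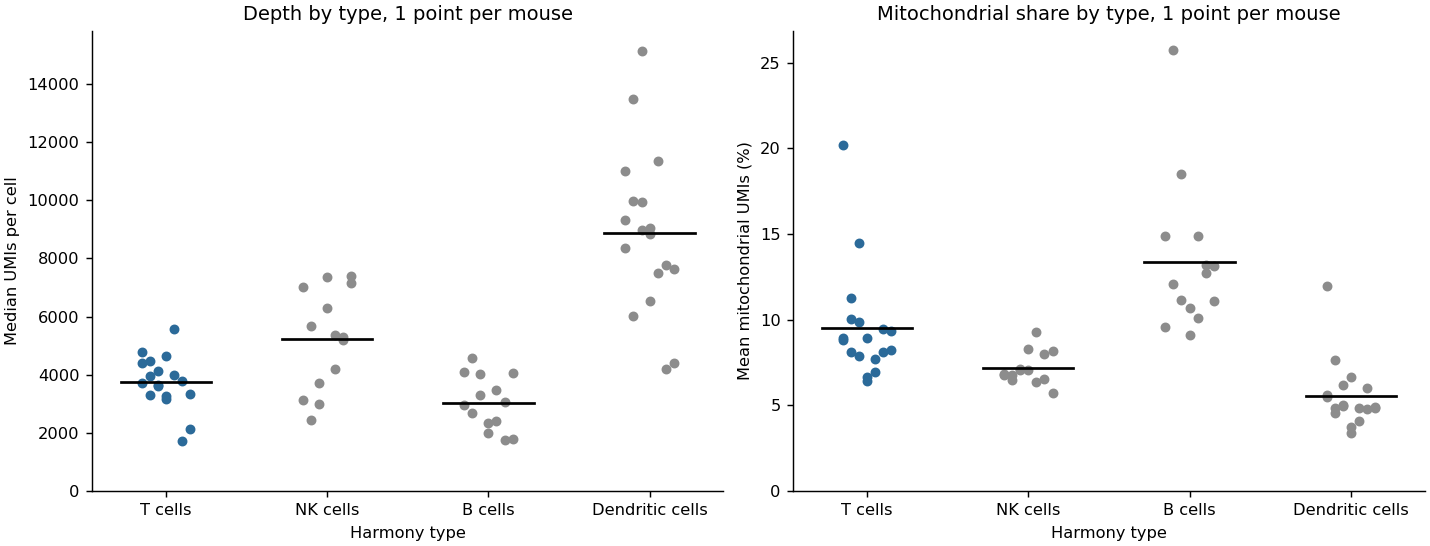
Median UMIs per cell (left y axis) and mean mitochondrial share in % of UMIs (right y axis) of T, NK, B and dendritic cells (x axis), 1 point for each mouse with at least 10 cells of the type. Horizontal lines are means over mice; for T cells they are 3750 UMIs and 9.51%, for dendritic cells 8862 UMIs and 5.53%.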

How the data were processed

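Aged tibialis anterior muscle from 21 mice was measured by single-cell RNA sequencing, and 1 table of cells per sample was read. Per the labels and the study's methods, the authors aligned reads to mm10 with Cell Ranger 3.1.0, subtracted ambient RNA with SoupX, filtered cells in Seurat (version 3.1.5 in the submitters' processing notes), and kept singlets of DoubletFinder. The deposited expected counts (UMIs per cell, not whole after SoupX) and percent columns (gene-set shares of UMIs) were used as given, as were the deposited fraction columns (doublet score, ambient fraction of 0.013 to 0.062). T cells were all rows with that Harmony label. The members and the lists were chosen with earlier results of these data known. No gene was named from values, since the tables hold none; NK, B and dendritic cells were the comparison types.

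Shares were arcsine square root transformed and tested with a permuted F statistic (100000 resamples, Python 3.11.15), and 9 contrasts by the quasi-likelihood test of edgeR 4.0.16 on cell numbers, with the number of all cells as library size and Benjamini-Hochberg adjustment over types. Per-cell measures (median log2 UMIs and genes, mean percentages, at least 10 cells) were tested with limma 3.58.1, adjusted over all types and measures. Exact permutation tests were two-sided. DESeq2 1.42.0, TMM, other labels, filters and leave-one-out fits were alternatives. Intervals are exact (Clopper-Pearson, 95%). Scripts were tested on simulated data. Mice are separate animals, 1 per sample. The median cell of a sample had 3115 to 14614 UMIs, and uninjured values rest on 7 to 16 T cells.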

Additional observations from a re-analysis of the deposited data

Results flagged for a closer look

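The log2 ratio of T to NK cells in 1 dpi mouse A was 3.11, far from the other 3 mice of that time point (its gap to the nearest of them over the range was 0.85, above Dixon's critical value for 4 samples). It was 1 of 31 groups tested in this way, and chance flags about 1 in 20. In this mouse BBKNN named 37 of the 47 T cells myeloid, and the part of those cells in the ratio was not tested.

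Cells named T cells by labels other than Harmony, and left without a Harmony label, lay outside the main measurement. By the labels the tables call pre-filter there were 921 such cells of 4886, with a median of 1684 UMIs and a mitochondrial share of 16.8%, against 2973 UMIs and 8.20% in the 3714 cells that both labellings named T cells. They were at most 0.117% of all cells in uninjured mice, and on average 1.84%, 0.801%, 1.04% and 0.718% at 2, 3.5, 5 and 7 dpi in that order, with every mouse of these time points above every uninjured mouse. At 1 dpi the mean was 0.999%, with mouse A (0.103%) inside the uninjured range. By BBKNN there were 181, with 0 in the uninjured mice and a mean of 0.454% of all cells at 5 dpi and 0.519% at 7 dpi, highest in 7 dpi mouse A (1.19%).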

How the results depend on the processing

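The T cell share of all cells over time passed in every alternative run. The share of immune cells over time and the T to B and T to dendritic ratios passed in fewer alternatives. Those were BBKNN labels, at least 750 genes, the replicate block and mice left out. Scanorama labels, pre-filter labels, the stricter filter and TMM were not run for them. With BBKNN labels the lymphocyte share (permutation test, adjusted p = 0.146) and the T to NK ratio (0.11) did not pass. Over single mice left out their adjusted p ran from 0.00346 to 0.0514 and from 0.00157 to 0.0964.

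Of 9 single steps in the share of all cells, 6 passed, against 3 with TMM and 0 with the exact permutation test adjusted over the 9 (adjusted p from 0.0643, with 4 steps at an unadjusted p of 0.0286), which had differences of 0.749, 0.746, 2.34, 9.71 and 8.95 percentage points from uninjured muscle at 1, 2, 3.5, 5 and 7 dpi and 7.37 from 3.5 to 5 dpi. With 3 or 4 mice per group the smallest unadjusted exact p is 0.0286, or 0.1 for 3 mice against 3. The adjusted exact test therefore had little room to pass with either denominator. The 1 dpi call was lost with BBKNN labels (log2 1.22), Scanorama labels with NK cells joined (1.28), T cells by both methods (0.96), T cells that BBKNN names T or NK (0.94, added after seeing the data), the stricter filter of at least 1000 genes, 2000 UMIs and at most 15% mitochondrial UMIs (1.01) and TMM (1.46). The 2 dpi call was lost with these in turn, Scanorama apart (1.33, 1.31, 1.38, 0.87 and 1.42). The 3.5 to 5 dpi call was lost with TMM (0.78). The difference between 1 and 2 dpi, never called, turned positive with BBKNN (0.11), Scanorama (0.43), joined Harmony (0.38), both methods (0.35), T or NK (0.43), pre-filter labels (0.54, added) and labelled cells as denominator (0.039), and that between 5 and 7 dpi with the stricter filter (0.18) and TMM (0.030). Over single mice left out, log2 values ran from 1.26 to 1.75 at 1 dpi (lost without uninjured C, 1 dpi A or C), 0.99 to 1.78 at 2 dpi (lost without uninjured C or 2 dpi A), -0.52 to 0.27 from 1 to 2 dpi, 1.60 to 2.15 from 3.5 to 5 dpi and -0.73 to 0.15 from 5 to 7 dpi. For immune cells they ran from 0.60 to 1.37 at 7 dpi (lost without uninjured B, uninjured C or 7 dpi A), -0.59 to 0.083 from 1 to 2 dpi and 0.91 to 1.58 from 2 to 3.5 dpi, and BBKNN labels gave 1.06 at 7 dpi. Of 6 steps called among immune cells, the exact permutation test adjusted over the 9 called 0 (3 at an unadjusted p of 0.0286), with differences of -15.7, -15.8, -13.7 and 16.0 points from uninjured muscle at 1, 2, 3.5 and 7 dpi, 2.11 from 2 to 3.5 dpi and 15.7 from 3.5 to 5 dpi. The causes were not tested.

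Of 13 per-cell measures 1 passed over time, against 3 with at least 5 cells, 0 with at least 20, 0 with the other summary, 2 with at least 750 genes, 4 with both methods and 3 without 1 dpi A and B (added), and 0 to 3 over mice left out (0 without uninjured B). Their single steps passed 12 times, against 0 with at least 20 cells, where no uninjured mouse is left, 5 with the other summary (medians in place of mean percentages and means in place of medians, void for rare gene sets whose medians are 0) and 5 to 15 over mice left out. With time point means removed, r turned to -0.0078 for B cells and -0.22 for median UMIs, neither called.

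Mice with the same replicate letter were on average no more alike in their cell type shares than mice with other letters. The mean correlation of deviations was -0.0172 over 48 same-letter pairs, 20 of them over 0.1, and 0.0012 over 135 other pairs. Of 21 mice, 6 were closest to their own letter. The paper states that several time points were collected together, but the labels give no collection day, so a batch by day was not tested. With the replicate block the 2 dpi call was lost (log2 1.28, adjusted p = 0.0559) and 2 per-cell measures passed over time.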
